A study of Mus musculus with 12 samples.

Results

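Slc7a11 and 9 antioxidant genes were followed through the 4 transduction groups of a mouse bone marrow RNA sequencing study. The 10 genes are Slc7a11, Gclc, Gclm, Gsr, Txnrd1, Srxn1, Prdx1, Hmox1, Nqo1 and Nfe2l2, and they make up 10 of the 19910 genes in the count table. Slc7a11 was chosen by its interaction value in these data, the departure of its level with both mutants from what the separate mutants gave, so that value and its group levels are described here without a test. The other 9 genes were taken by function, as reported targets of the transcription factor NRF2, as glutathione genes, or as the NRF2 gene itself. The question was whether the non-additive change of Slc7a11 extended to them.

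Marrow came from female C57BL/6J mice aged 6 to 10 weeks (the strain label reads C57Bl/6), and all of it received a pair of retroviral vectors. The empty group received empty vectors only, the SETBP1 group SETBP1 (D868N) with an empty vector, the NRAS group NRAS (G12D) with an empty vector, and the SETBP1+NRAS group both mutants. Each group had 3 libraries, and the sample titles call the cells murine leukemia cells. No label says if the replicates of a group are different mice, transductions or cultures, so the p-values below measure the spread between these samples, which may be technical.

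Library totals ran from 7085894 to 8864919 counts, and all 10 genes passed the filter on low counts. Nras stood at 82.0 to 93.0 CPM (read counts scaled to a common library total) without the NRAS vector and at 1423 to 1712 CPM with it, and Setbp1 had no count without the SETBP1 vector, 5 to 7 reads with SETBP1 and 11 to 17 with SETBP1+NRAS. SETBP1 replicate 3 stood apart from its group: its log2 CPM correlated with the other SETBP1 libraries at r = 0.946 and 0.953, against 0.984 to 0.991 for every other pair of replicates. For several changes of the 9 genes and of list genes, values are given with and without this library. Some others that also move by over 1.5 times are not paired in this way. Among them are the Gclm change with SETBP1 and the interactions of Gclm, Nqo1 and Nfe2l2, which are given with their range over single libraries left out. Some myeloid markers were abundant in every library, among them Ly6c2 (15614 to 33142 reads) and Lgals3 (5848 to 17848). Others had low counts, such as Cx3cr1 (1 to 37 reads) and Retnlg (15 to 256). The hemoglobin genes Hbb-bs, Hbb-bt, Hba-a1 and Hba-a2 and the T cell genes Cd3e and Cd8a were at 0 in all 12 libraries. How reads matching several genes were counted is not given, so a 0 may not mean absence. Other genes of the same marker lists were counted in every library. Among them were the erythroid gene Epor (3 to 32 reads) and the megakaryocyte genes Pf4 (423 to 3118 reads) and Itga2b (157 to 987). The lymphoid genes Nkg7 (356 to 3331) and Cd79b (52 to 189) were counted in every library too.

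NRF2, encoded by Nfe2l2, is a basic leucine zipper transcription factor that KEAP1 marks for degradation in unstressed cells. Oxidants and electrophiles release it, and it then binds antioxidant response elements together with small MAF proteins and activates genes for glutathione synthesis, thioredoxin recycling, heme breakdown and quinone reduction. Slc7a11 encodes xCT, the subunit of the plasma membrane antiporter that exchanges glutamate for cystine, whose reduced form is the limiting building block of glutathione. It is a reported target of NRF2 and also of ATF4, the transcription factor of the amino acid stress response.

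The promoters of the genes that rose furthest or that carry the elements in question are shown here because the members did not move as a block. RefSeq (GRCm38.p6) gave promoter windows for 7 of the 10 genes. Gclc, Gsr and Hmox1 had no entry. In the 250 bases before each start, both strands were searched for 3 motifs: the antioxidant response element core TGACNNNGC, the AP-1 element TGANTCA, and the ATF4 composite element core TGATGNAA. Of 32851 promoter windows of that length, 10.2% held the first, 6.75% the second and 3.45% the third. Capitals mark the matches, and all sequences run 5′ to 3′ on the strand of the gene, without bases that lie in annotated exons. The Slc7a11 window lies at chr3:50443615-50443863 (minus strand), that of Gclm at chr3:122245307-122245556, the second Txnrd1 window at chr10:82859009-82859178, that of Srxn1 at chr2:152105274-152105515 and that of Prdx1 at chr4:116685349-116685543 (plus strand for these 4).
Slc7a11: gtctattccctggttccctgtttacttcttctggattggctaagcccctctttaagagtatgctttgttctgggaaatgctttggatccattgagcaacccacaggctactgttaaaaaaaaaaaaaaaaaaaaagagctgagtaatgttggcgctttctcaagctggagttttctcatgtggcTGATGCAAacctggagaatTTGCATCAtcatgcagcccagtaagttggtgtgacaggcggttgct
Gclm: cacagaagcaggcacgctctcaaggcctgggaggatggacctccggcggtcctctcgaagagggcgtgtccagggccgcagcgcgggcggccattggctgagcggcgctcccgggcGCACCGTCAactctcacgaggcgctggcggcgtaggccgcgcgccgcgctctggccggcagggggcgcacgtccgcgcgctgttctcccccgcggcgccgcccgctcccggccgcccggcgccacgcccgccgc
Txnrd1: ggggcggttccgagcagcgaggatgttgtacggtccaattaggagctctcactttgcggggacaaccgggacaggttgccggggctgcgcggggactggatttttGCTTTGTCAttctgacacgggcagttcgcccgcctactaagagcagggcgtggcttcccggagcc
Srxn1: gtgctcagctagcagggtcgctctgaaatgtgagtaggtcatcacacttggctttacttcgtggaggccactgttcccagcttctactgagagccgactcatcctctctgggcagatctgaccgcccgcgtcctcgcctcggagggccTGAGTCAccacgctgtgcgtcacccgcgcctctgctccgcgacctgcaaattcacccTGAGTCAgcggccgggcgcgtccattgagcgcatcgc
Prdx1: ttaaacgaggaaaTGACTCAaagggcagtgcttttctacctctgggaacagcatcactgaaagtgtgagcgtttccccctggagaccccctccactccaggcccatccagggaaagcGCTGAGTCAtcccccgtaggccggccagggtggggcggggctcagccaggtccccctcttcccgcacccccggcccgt

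Slc7a11 held 2 matches to the ATF4 core, TGATGCAA on its own strand 66 bases before the start and TTGCATCA, the opposite strand's copy, 47 bases before it, with 19 bases between their first bases. It held no match to the antioxidant response element core in this window. Gclm (GCACCGTCA, 134 bases before the start), Txnrd1 (GCTTTGTCA, 92 bases) and Prdx1 (GCTGAGTCA, 133 bases) each held 1 such match on the opposite strand, and Nfe2l2 held TGACTCCGC 240 bases before its start, inside annotated exon sequence that is not printed. Srxn1 held 2 AP-1 matches, TGAGTCA at 102 and 45 bases before the start. The copy at 45 bases continues as TGAGTCAGC, which differs by 1 letter from the searched antioxidant response element core and so was not matched to it. Prdx1 held TGACTCA at 237 bases and TGAGTCA at 131 bases, and the latter overlaps its antioxidant response element match. Nqo1 held no match to any of the 3 motifs, and neither did windows 1 and 3 of Txnrd1, which are not printed. A match is a description of letters in a short window and does not show binding, and elements farther away were not searched.

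Slc7a11 (chr3:49892526-50443614, minus strand, protein coding) had the widest fold range of the 10 genes. With empty vectors it stood at 11.2, 10.7 and 10.9 normalised CPM (10.9 ± 0.253, SD, n = 3), and with SETBP1 at 23.1, 24.8 and 22.2 (23.4 ± 1.31). With NRAS it stood at 131, 121 and 152 normalised CPM (135 ± 15.9), and with SETBP1+NRAS at 103, 109.7 and 106 (106 ± 3.30). No library of any group overlapped with another group: the order was empty, SETBP1, SETBP1+NRAS and NRAS. Normalised CPM has edgeR's TMM scaling factors applied, and the counts behind these levels ran from 81 to 1202 reads per library.

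SETBP1 alone was thus 2.14-fold above empty for Slc7a11 (log2 change 1.10, SE 0.11) and NRAS alone 12.3-fold (3.62, SE 0.11), whereas SETBP1 added to NRAS gave a log2 change of -0.34 (SE 0.09). The interaction, taken as the SETBP1+NRAS to NRAS change less the SETBP1 to empty change, was -1.44 on the log2 scale (SE 0.15), and leaving out each library in turn kept it between -1.51 and -1.35. Those values chose the gene and carry no test. Averaged over the other mutant, the NRAS effect on Slc7a11 was 2.90 (SE 0.08) and the SETBP1 effect 0.38 (SE 0.07), also without a test. For the other genes, tests ran with edgeR over all 10993 genes that passed the filter. The average SETBP1 effect joins a rise without NRAS to a lower level with it, so it stands for neither.

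**Figure D1:**
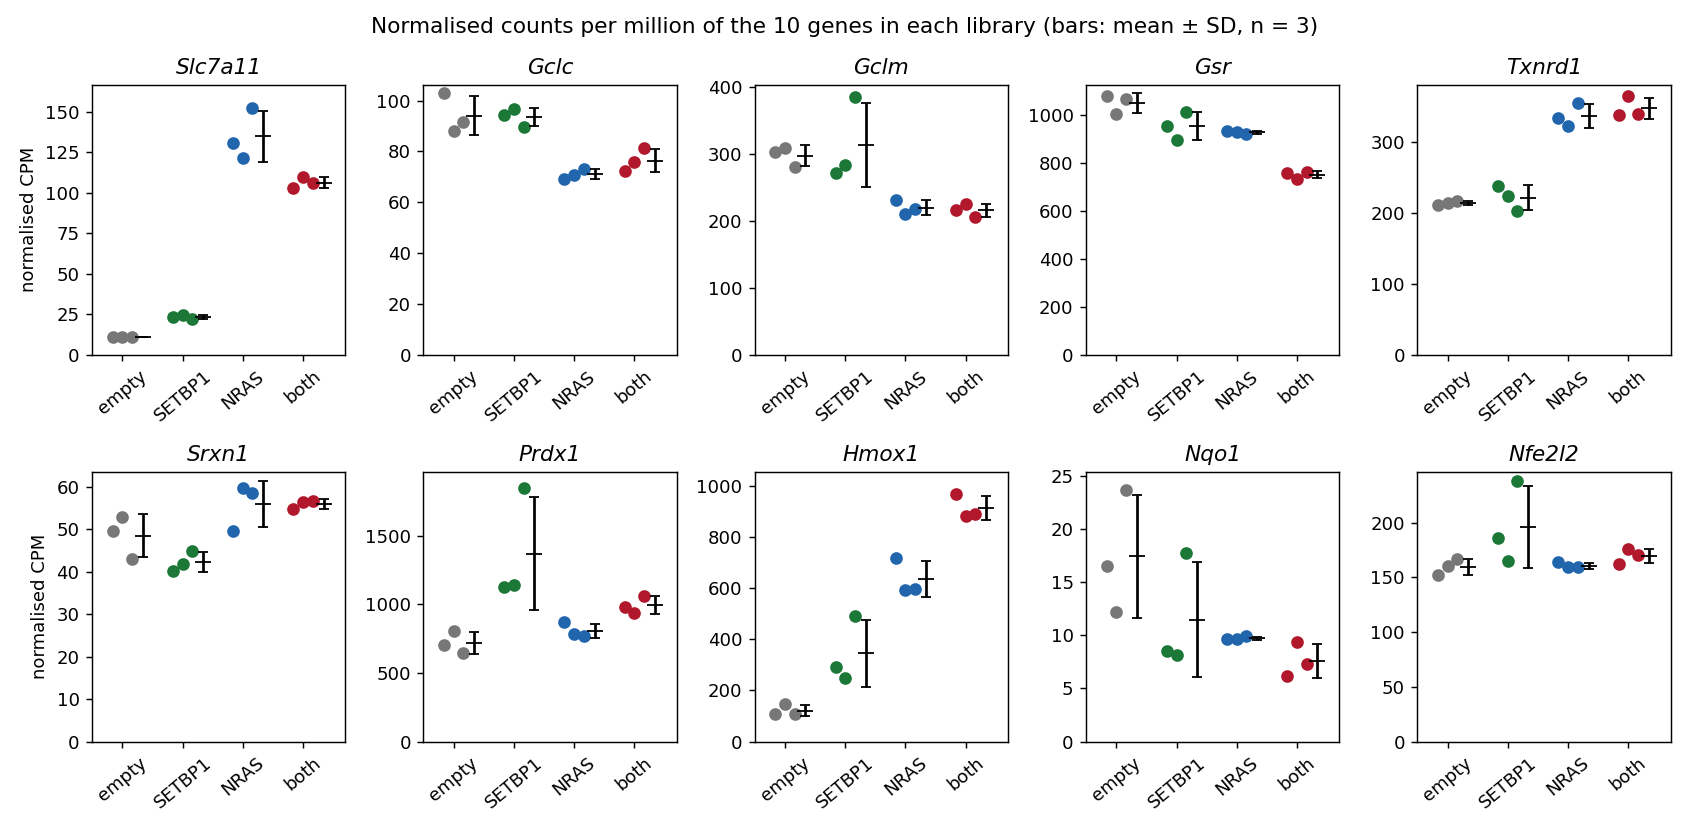
Normalised CPM (y axis, linear, from 0) of the 10 genes in each of the 12 libraries by group (x axis; both is SETBP1+NRAS), with the mean and SD of 3 libraries beside the points. Slc7a11 separates all 4 groups, Hmox1 is highest with both mutants, and SETBP1 replicate 3 (the right-hand green point) is the highest SETBP1 library for Gclm, Gsr, Srxn1, Prdx1, Hmox1, Nqo1 and Nfe2l2.

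The enzymes that make and recycle glutathione did not follow the transporter upward. Gclc and Gclm encode the catalytic and the modifier subunit of glutamate-cysteine ligase, the rate-limiting enzyme of glutathione synthesis, and Gsr encodes glutathione reductase. All 3 were lower in NRAS and in SETBP1+NRAS than with empty vectors.

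Gclc (chr9:77754535-77794485) stood at 103, 88.0 and 91.5 normalised CPM with empty vectors (94.1 ± 7.72, SD, n = 3) and at 94.4, 96.6 and 89.4 with SETBP1 (93.5 ± 3.65). It stood at 69.2, 70.9 and 73.0 with NRAS (71.0 ± 1.89) and at 72.2, 75.6 and 81.4 with SETBP1+NRAS (76.4 ± 4.66). Every library with NRAS was below every library without it. The log2 change was -0.41 for NRAS against empty (SE 0.09, edgeR adjusted p = 0.00248), -0.29 for SETBP1+NRAS against SETBP1 (adjusted p = 0.0149) and -0.30 against empty (adjusted p = 0.0122). SETBP1 against empty was -0.01 (SE 0.09, adjusted p = 0.945). Without SETBP1+NRAS replicate 1 the changes of SETBP1+NRAS missed the threshold against SETBP1 (-0.25, adjusted p = 0.0690) and against empty (-0.26, adjusted p = 0.0603), and without empty replicate 1 the latter was -0.24 (adjusted p = 0.0657).

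Gclm (chr3:122245557-122270732) stood at 304, 309.7 and 280.3 normalised CPM with empty vectors (298 ± 15.6) and at 272, 284 and 386 with SETBP1 (314 ± 62.6). It stood at 232, 210.3 and 218 with NRAS (220.0 ± 11.1) and at 216, 226 and 207 with SETBP1+NRAS (216 ± 9.55). As for Gclc, the libraries with and without NRAS did not overlap, and the groups within each class did. Gclm fell by 0.44 on the log2 scale with NRAS (SE 0.11, edgeR adjusted p = 0.00797) and by 0.54 with SETBP1+NRAS against SETBP1 (adjusted p = 0.00167). Without SETBP1 replicate 3 that second change was -0.36 (adjusted p = 2.56e-04).

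Gsr (chr8:33652523-33698163) was lowest with both mutants. It stood at 1079, 1004 and 1064 normalised CPM with empty vectors (1049 ± 39.9), at 953, 897 and 1011 with SETBP1 (954 ± 57.2), at 932, 927 and 922 with NRAS (927 ± 5.15) and at 757, 733 and 760.3 with SETBP1+NRAS (750.2 ± 14.8). The SETBP1+NRAS libraries lay below all 9 others, and SETBP1 alone was at -0.14 against empty (adjusted p = 0.145, or -0.18 without SETBP1 replicate 3, adjusted p = 0.0388). Gsr was the only one of the 9 genes past the threshold for SETBP1+NRAS against NRAS, with a log2 change of -0.31 (SE 0.06, edgeR adjusted p = 0.0243), which missed it when any of the 6 libraries of those groups was left out (highest adjusted p = 0.117). Against empty, NRAS gave -0.18 (adjusted p = 0.0432, lost in 10 of 22 alternative settings) and SETBP1+NRAS gave -0.48 (SE 0.06, adjusted p = 3.60e-05). The average SETBP1 effect on Gsr was -0.22 (SE 0.04, adjusted p = 0.00623).

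The thioredoxin branch moved differently. Txnrd1 encodes thioredoxin reductase 1, which reduces thioredoxin with NADPH, Srxn1 encodes sulfiredoxin, which repairs overoxidised peroxiredoxins, and Prdx1 encodes peroxiredoxin 1, which removes hydrogen peroxide. Txnrd1 rose with NRAS and Prdx1 with SETBP1, and Srxn1 was higher with NRAS when averaged over SETBP1.

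Txnrd1 (chr10:82833951-82897712) stood at 211, 214 and 217 normalised CPM with empty vectors (214 ± 3.10) and at 239, 223 and 203 with SETBP1 (222 ± 17.8). With NRAS it stood at 334, 323 and 356 (338 ± 16.9) and with SETBP1+NRAS at 339, 365 and 339.7 (348 ± 14.7). The NRAS change was nearly the same size in both backgrounds. It was 0.66 against empty (SE 0.07, edgeR adjusted p = 1.38e-05) and 0.65 against SETBP1 (SE 0.07, adjusted p = 1.17e-05), while SETBP1 gave 0.05 alone (adjusted p = 0.650) and 0.04 with NRAS (adjusted p = 0.939).

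Srxn1 (chr2:152105516-152111376) stood at 49.6, 53.0 and 43.0 normalised CPM with empty vectors (48.5 ± 5.03), at 40.2, 41.9 and 45.0 with SETBP1 (42.4 ± 2.40), at 49.7, 59.7 and 58.6 with NRAS (56.0 ± 5.47) and at 54.7, 56.4 and 56.8 with SETBP1+NRAS (56.0 ± 1.12). The empty group overlapped with SETBP1 and with NRAS. SETBP1+NRAS exceeded SETBP1 by 0.40 on the log2 scale (SE 0.11, edgeR adjusted p = 0.00869), NRAS against empty was 0.21 (adjusted p = 0.159), and the average NRAS effect was 0.30 (SE 0.08, adjusted p = 0.00419).

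Prdx1 (chr4:116685544-116700822) stood at 706, 803 and 647 normalised CPM with empty vectors (719 ± 78.7) and at 1125, 1137 and 1844 with SETBP1 (1369 ± 412). With NRAS it stood at 867, 779.7 and 770.4 (806 ± 53.5) and with SETBP1+NRAS at 983, 934 and 1061 (993 ± 64.5). The SETBP1 libraries lay above all others, and replicate 3 far above its group. Prdx1 rose by 0.93 on the log2 scale with SETBP1 (SE 0.16, edgeR adjusted p = 0.00371), and by 0.65 without replicate 3 (SE 0.08, adjusted p = 3.43e-05). When only the empty and SETBP1 libraries were fitted, the change was 0.93 and missed the threshold (adjusted p = 0.0618). SETBP1+NRAS was 0.47 above empty (adjusted p = 0.0277, lost in 5 of 22 alternatives) and 0.46 below SETBP1 (log2 change -0.46, adjusted p = 0.0279, lost in 4 of 22). Without SETBP1 replicate 3 the latter was -0.19 (SE 0.08, adjusted p = 0.0625). NRAS against empty was 0.17 (SE 0.16, adjusted p = 0.451). Prdx1 has close pseudogene copies, so its reads may have been shared or lost in counting.

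Hmox1 (chr8:75093621-75100589) rose with each mutant and was highest with both. It encodes heme oxygenase 1, which breaks heme down to iron, carbon monoxide and biliverdin. It stood at 109.5, 147 and 107 normalised CPM with empty vectors (121 ± 22.3), at 292, 249 and 493 with SETBP1 (345 ± 129.7), at 719, 592 and 598 with NRAS (636 ± 71.4) and at 969.8, 885 and 889 with SETBP1+NRAS (915 ± 47.8). No group overlapped with another.

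Hmox1 was 2.85-fold above empty with SETBP1 (log2 change 1.51, SE 0.20, edgeR adjusted p = 0.00128), 5.26-fold with NRAS (2.40, SE 0.21, adjusted p = 1.45e-06) and 7.56-fold with SETBP1+NRAS (2.92, SE 0.21, adjusted p = 1.49e-07). Without SETBP1 replicate 3 the SETBP1 change was 1.16 (SE 0.11, adjusted p = 2.57e-06). SETBP1+NRAS against NRAS was 0.52 (SE 0.20, adjusted p = 0.267) in the fit of all libraries, although all 3 libraries lay above the 3 NRAS libraries, and it passed the threshold without SETBP1 replicate 3 (0.52, SE 0.10, adjusted p = 0.00143). That library is in neither group and enters through the shared estimate of the spread.

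Summed monocyte and macrophage markers, like Hmox1 and Prdx1, were higher with SETBP1 than with empty vectors, and SETBP1 replicate 3 was the highest SETBP1 library for all of them. In SETBP1 replicates 1 and 2 the sums were 6513 and 6681 CPM, with Hmox1 at 292 and 249 normalised CPM and Prdx1 at 1125 and 1137. Macrophages are known for high heme oxygenase 1. All 12 listed markers, among them Csf1r, Cd68 and Adgre1, had counts in every library. Their summed level was 5417 to 6079.9 CPM with empty vectors, 6513 to 9556 with SETBP1 (replicate 3 highest), 5219 to 5726 with NRAS and 5694 to 6156.5 with SETBP1+NRAS, and 6 of the 12 markers rose with SETBP1 against empty, where 8.31% of all genes rose. The NRAS libraries, with Hmox1 at 592 or more, had marker sums that reached no higher than those of the empty group. The SETBP1+NRAS libraries, where Hmox1 was highest, had marker sums that overlapped with those of the empty group. The part of cell makeup in the SETBP1 changes was not tested. In bulk RNA, fewer cells of a type and less RNA per cell cannot be told apart.

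Late neutrophil markers (12 of 12 with counts, among them Ltf, Camp and Retnlg) summed to 11413 to 12876 CPM with empty vectors, 5214 to 7469 with SETBP1, 5959 to 7625 with NRAS and 2011 to 2518 with SETBP1+NRAS. Mast cell and basophil markers summed to 3221 to 3292, 1738 to 2482, 759 to 1269.8 and 422 to 609.5 in the same order, with Mcpt4 at 0 in 11 libraries. With NRAS against empty, Gclc, Gclm and Gsr were lower and so were both sums. With SETBP1 alone both sums were also below those of empty. Against empty, Gclc was then at -0.01, Gclm at 0.07 and Gsr at -0.14 on the log2 scale. With single libraries left out, that Gclm value ran from -0.101 to 0.174. From NRAS to SETBP1+NRAS both sums were lower again. Mean normalised CPM in these groups was 71.0 and 76.4 for Gclc, 220 and 216 for Gclm, and 927 and 750.2 for Gsr. The part of cell makeup in these changes was not tested.

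Nqo1 and Nfe2l2 complete the set. Nqo1 (chr8:107388225-107403206, minus strand) encodes the quinone reductase that is often used as a readout of NRF2 activity. It stood at 16.5, 12.2 and 23.6 normalised CPM with empty vectors (17.4 ± 5.77), at 8.55, 8.10 and 17.7 with SETBP1 (11.5 ± 5.44), at 9.65, 9.61 and 9.89 with NRAS (9.71 ± 0.152) and at 6.15, 9.34 and 7.27 with SETBP1+NRAS (7.59 ± 1.62). No mutant group had a mean above that of empty. Nqo1 fell by 1.19 on the log2 scale with SETBP1+NRAS (SE 0.31, edgeR adjusted p = 0.00720). With NRAS the change was -0.84 (SE 0.30, adjusted p = 0.0479), which missed the threshold in 9 of 22 alternatives and was -0.57 without empty replicate 3 (adjusted p = 0.215). With SETBP1 it was -0.60 (SE 0.30, adjusted p = 0.176), and -1.06 without SETBP1 replicate 3 (adjusted p = 0.00588). With 44 to 175 reads per library, Nqo1 was the most thinly counted of the 9 genes.

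Nfe2l2 (chr2:75675513-75704641, minus strand) stood at 152, 160.1 and 167 normalised CPM with empty vectors (159.7 ± 7.48), at 186, 165 and 238 with SETBP1 (196 ± 37.7), at 164, 159 and 159 with NRAS (161 ± 2.82) and at 163, 176 and 171 with SETBP1+NRAS (169.8 ± 6.60). The groups overlapped in every comparison. No change of its messenger RNA passed the threshold: NRAS against empty was 0.01 (SE 0.11, edgeR adjusted p = 0.957) and SETBP1 against empty 0.30 (SE 0.11, adjusted p = 0.0739), or 0.14 without SETBP1 replicate 3 (adjusted p = 0.216). NRF2 is regulated mainly at the protein level, which these data do not measure.

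**Figure D2:**
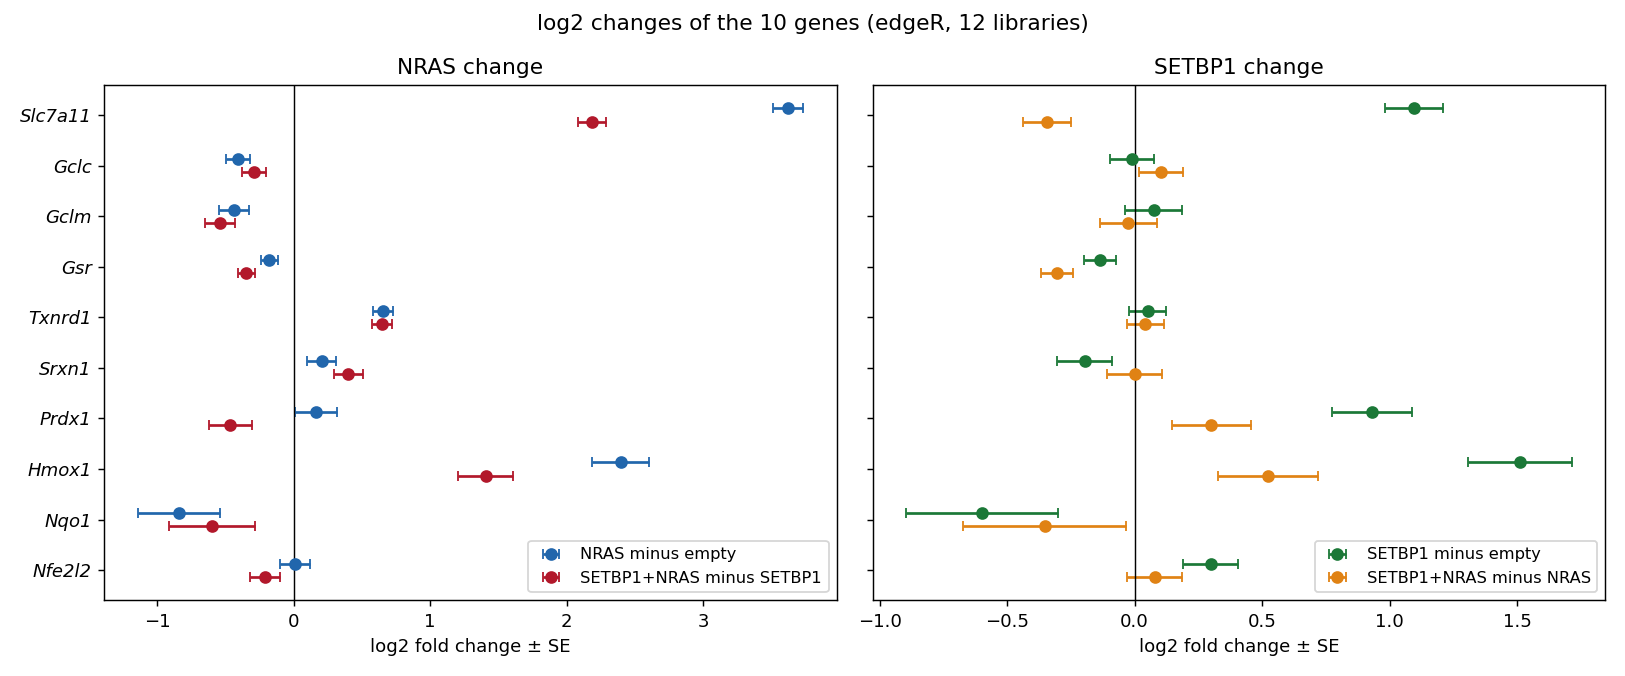
log2 change ± SE (x axis) of the 10 genes (y axis), on the left for NRAS in the empty and the SETBP1 background and on the right for SETBP1 in the empty and the NRAS background. For Txnrd1 the NRAS changes are 0.66 and 0.65, whereas for Slc7a11 they are 3.62 and 2.18 and the SETBP1 changes have opposite signs, 1.10 and -0.34.

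Levels can be compared between genes only per length. Per kilobase of the annotated exons of coding transcripts, Slc7a11 rose from 1.11 normalised CPM with empty vectors, the lowest of the 10, to 13.7 with NRAS and 10.8 with SETBP1+NRAS. Gsr was the highest with empty vectors (392 normalised CPM per kilobase), and Hmox1 the highest with SETBP1+NRAS (583, from 77.1 with empty vectors). Nqo1 went from 11.2 to 4.89. So even at its highest, the transporter transcript stayed below Gclc (20.8 with NRAS) on this scale. The ranking depends on the length used, 9848 bases for Slc7a11 and 3423 for Gclc. That length joins the exons of all annotated coding transcripts, whether or not these cells express them.

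Across the 9 genes other than Slc7a11, 2 passed the threshold for SETBP1 against empty, both higher (Prdx1 and Hmox1), where 14.9% of all genes tested passed, 8.31% higher and 6.55% lower. That overall share was 3.50% without empty replicate 3, 4.44% without empty replicate 1 and 28.7% without SETBP1 replicate 1. For NRAS against empty, 6 passed, 2 higher (Txnrd1 and Hmox1) and 4 lower (Gclc, Gclm, Gsr and Nqo1), against 32.5% of all genes, 17.0% higher and 15.5% lower. For SETBP1+NRAS against SETBP1, 7 passed, 3 higher (Txnrd1, Srxn1 and Hmox1) and 4 lower (Gclc, Gclm, Gsr and Prdx1), against 42.4%, with 20.9% higher and 21.5% lower. For SETBP1+NRAS against empty, 7 passed, 3 higher (Txnrd1, Prdx1 and Hmox1) and 4 lower (Gclc, Gclm, Gsr and Nqo1), against 40.6%, with 20.8% higher and 19.8% lower. These comparisons share libraries with one another, so their counts are not separate evidence. Scaling by library size alone left 6, 8 and 6 of the 9 genes past the threshold in the 3 comparisons with NRAS just given, but moved the split of all genes. For NRAS against empty that split went from 1868 higher and 1708 lower to 1379 and 2265, for SETBP1+NRAS against SETBP1 from 2293 and 2368 to 1720 and 2888, and for SETBP1+NRAS against empty from 2282 and 2180 to 1656 and 2908. With upper-quartile scaling it was 1933 and 2524 for the last. The median log2 change of all genes under library size was -0.10, -0.08 and -0.13, and the rises of Txnrd1 and Hmox1 and the falls of Gclc, Gclm and Gsr kept their sign under it.

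For SETBP1+NRAS against NRAS, 1 of the 9 genes passed (Gsr, lower), against 1.91% of all genes, 0.528% higher and 1.38% lower. Without SETBP1 replicate 3 it was 3 genes, with Prdx1 (0.30, adjusted p = 0.0119) and Hmox1 added, against 7.52% of 11112 genes. The average SETBP1 effect passed for 3 of the 9 genes (Hmox1, 1.02, and Prdx1, 0.62, higher, and Gsr lower) and for 14.0% of all genes. The average NRAS effect passed for 7 of the 9 and for 51.7% of all genes. The median log2 change of the 9 genes was 0.01 for NRAS against empty, beside -0.01 over all genes, and the 9 genes divided into 2 that rose, 4 that fell and 3 past in neither direction.

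The non-additive change of Slc7a11 was not found in the other members at the threshold used. The interaction passed for 0 of the 9 genes with edgeR, 2 at an unadjusted p under 0.05, 1 with DESeq2 and 0 with limma-voom. Over all genes tested, 1420 of 10993 had an unadjusted p under 0.05, and 0.846% passed with DESeq2 and 0.0273% with limma-voom. With edgeR the share of all genes was 0.0455% (0.00910% higher and 0.0364% lower), or 5 genes. That count includes Slc7a11, which was chosen by this value, so nothing is read from its call. With so few calls over the whole table, a missed threshold leaves room for sizeable interactions in single genes, and it does not show that the genes behaved additively.

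Hmox1 came closest. Its interaction was -0.99 on the log2 scale (SE 0.28, edgeR adjusted p = 0.222), and adjusted p values over all alternatives for it were no lower than 0.0409. It passed with DESeq2 (-0.99, adjusted p = 0.0495) and without SETBP1 replicate 3 (-0.64, SE 0.15, adjusted p = 0.0409, where 110 of 11112 genes passed), the latter with an estimate closer to 0. Prdx1 had an interaction of -0.63 (SE 0.22, adjusted p = 0.304), or -0.35 without SETBP1 replicate 3 (SE 0.11, adjusted p = 0.122). For both genes the SETBP1 group had the largest SD of the 4 groups.

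The glutathione enzymes had small interactions. Gclc stood at 0.12 (SE 0.12, edgeR adjusted p = 0.695), Gclm at -0.10 (SE 0.16, adjusted p = 0.793) and Gsr at -0.17 (SE 0.09, adjusted p = 0.442). Txnrd1 was the closest to 0, at -0.01 (SE 0.10, adjusted p = 0.978). Srxn1 stood at 0.20 (SE 0.15, adjusted p = 0.587), Nfe2l2 at -0.22 (SE 0.15, adjusted p = 0.544) and Nqo1 at 0.24 with the widest error (SE 0.44, adjusted p = 0.818). None of these 7 values was near the -1.44 of Slc7a11 in size. With single libraries left out, the interaction ran from -0.198 to 0.0764 for Gclm, from -0.339 to -0.0572 for Nfe2l2 and from -0.0355 to 0.708 for Nqo1.

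**Figure D3:**
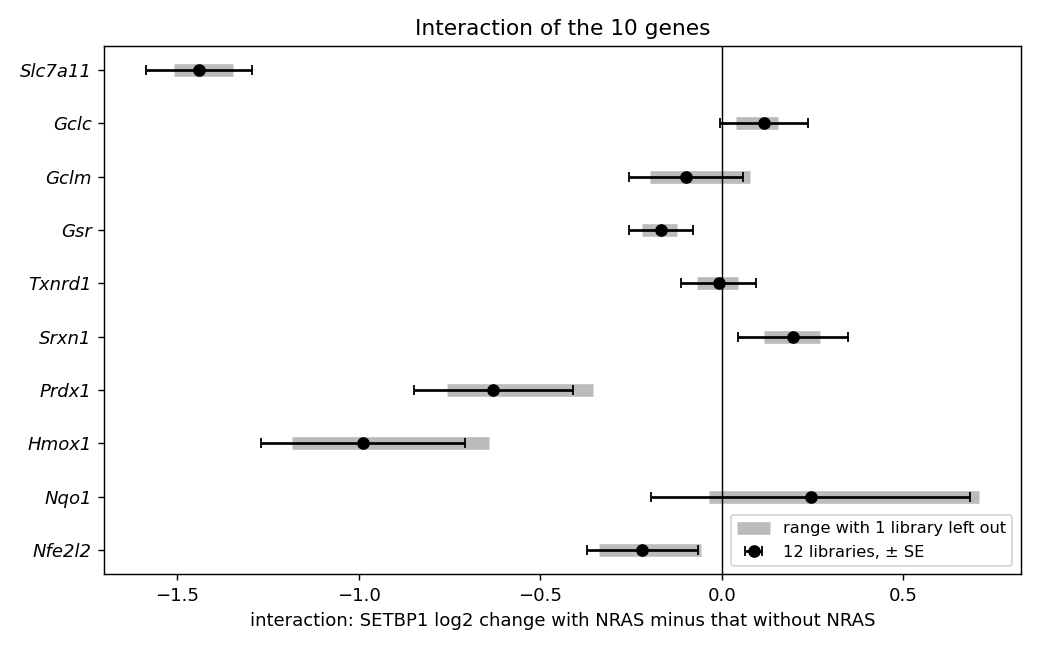
Interaction on the log2 scale (x axis) for the 10 genes (y axis), with its SE and, in grey, the range when each of the 12 libraries is left out in turn. Slc7a11 lies at -1.44 with a range of -1.51 to -1.35, Hmox1 and Prdx1 lie below 0 with wide ranges, and Txnrd1 lies at -0.01.

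The scale matters for what counts as non-additive. If the separate folds had multiplied, Slc7a11 would have stood at 289 normalised CPM with SETBP1+NRAS, and if the separate CPM differences had added up, at 147. The measured 106 was 36.8% of the product and 72.2% of the sum, and lay 41.0 CPM under the sum (difference -41.0, SE 9.38). Hmox1, at 915, was 50.4% of its product (1814) but 106% of its sum (860.2), a difference of 54.5 CPM from the sum (SE 90.8). So the shortfall of Hmox1 on the log2 scale has the opposite sign in CPM, within its error, while that of Slc7a11 has the same sign on both scales. Prdx1 measured 993 beside a product of 1535 and a sum of 1456 (difference -463 CPM, SE 247), with the spread of SETBP1 in that error. Txnrd1 measured 99.4% of its product and 101% of its sum.

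**Figure D4:**
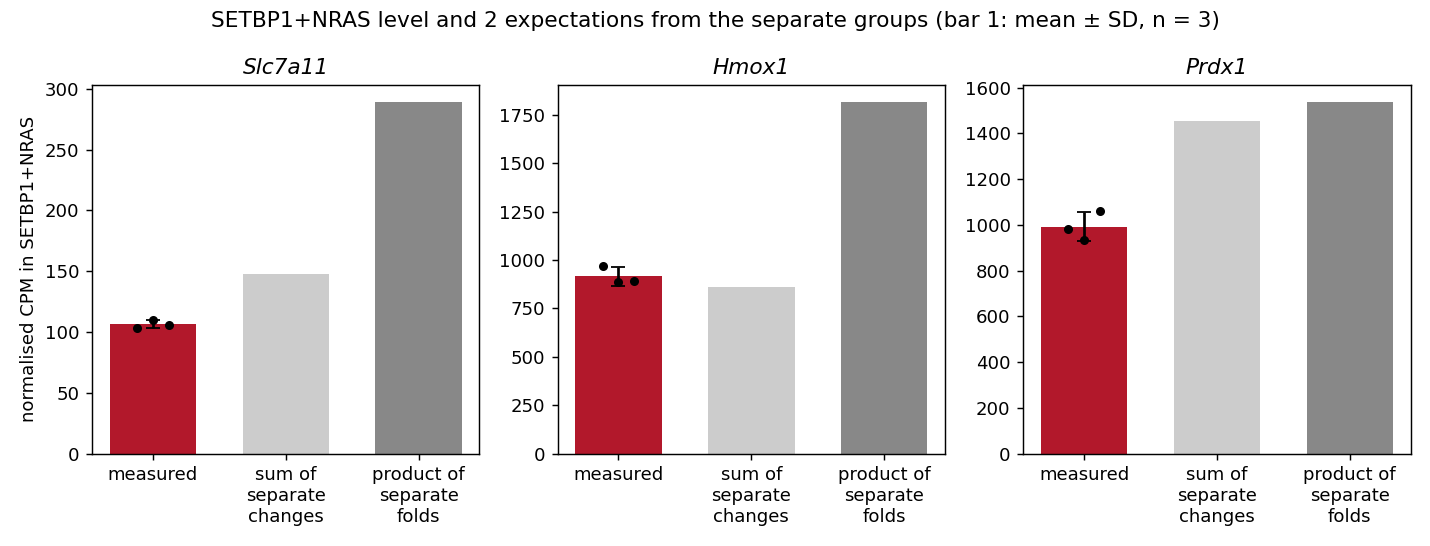
Normalised CPM with SETBP1+NRAS (y axis, from 0) for Slc7a11, Hmox1 and Prdx1: the measured mean ± SD with its 3 libraries (red), the level if the separate CPM changes added up (light grey) and the level if the separate folds multiplied (dark grey). Slc7a11 at 106 lies below both 147 and 289, and Hmox1 at 915 lies near its sum of 860.2 and below its product of 1814.

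Other genes of the pathway were read from 7 lists (135 genes tested), none of which holds a member. In the list of 30 genes for glutathione synthesis, transport and use, 4 rose and 12 fell with NRAS against empty, with a median log2 change of -0.32, where 17.0% of all genes rose and 15.5% fell. The deepest falls were Gpx3, the secreted glutathione peroxidase (from 193 ± 10.0 normalised CPM to 36.2 ± 4.40, SD, n = 3, log2 change -2.41, edgeR adjusted p = 5.51e-08), and the microsomal glutathione transferases Mgst1 (-2.30, adjusted p = 2.23e-08) and Mgst2 (-1.56, adjusted p = 3.44e-07). Gpx4, which removes lipid peroxides, fell by 0.39 (adjusted p = 0.00230). Glrx, a glutaredoxin (0.90, adjusted p = 2.92e-05), Ggct, which cleaves gamma-glutamyl amino acids (0.84, adjusted p = 0.00182), and Abcc1, an exporter of glutathione conjugates (0.72, adjusted p = 0.0207), rose. Gss, the second enzyme of glutathione synthesis, was at 0.26 (SE 0.14, adjusted p = 0.160). The late neutrophil and mast cell sums given above fell with NRAS as well.

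Mgst2 was the one gene of that list past the threshold for SETBP1+NRAS against NRAS. It went from 95.9 ± 3.29 normalised CPM with empty vectors to 32.6 ± 1.92 with NRAS and 16.6 ± 1.76 with SETBP1+NRAS (SD, n = 3), a log2 change of -0.98 between the last 2 groups (SE 0.13, edgeR adjusted p = 0.00126). Slc3a2, the heavy chain that pairs with xCT, stood at 347 ± 6.56 normalised CPM with empty vectors, 449 ± 81.9 with SETBP1, 417 ± 13.7 with NRAS and 467 ± 18.9 with SETBP1+NRAS. It rose by 0.37 with SETBP1 (adjusted p = 0.0263, or 0.22 without SETBP1 replicate 3, adjusted p = 0.0222) and 0.43 with SETBP1+NRAS (adjusted p = 0.00362), and was 0.27 above empty with NRAS (adjusted p = 0.0561, or 4.66e-04 without SETBP1 replicate 3). Its steps were far smaller than those of its partner.

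Among 14 regulators and partners of NRF2, 4 rose and 0 fell with NRAS (median log2 change 0.23), beside 17.0% and 15.5% of all genes. Sqstm1, which can sequester KEAP1, rose by 0.39 (edgeR adjusted p = 6.90e-04), Cul3, the ubiquitin ligase scaffold that works with KEAP1, by 0.41 (adjusted p = 0.00158), and Cdkn1a, the cell cycle inhibitor p21, by 0.78 (adjusted p = 0.00309). Keap1 itself stood at -0.04 with NRAS (SE 0.09, adjusted p = 0.757), and at -0.35 for SETBP1+NRAS against SETBP1 (adjusted p = 0.00872, or -0.22 without SETBP1 replicate 3, adjusted p = 0.0176). Bach1, a repressor at antioxidant response elements, had few reads and stood at -0.46 with NRAS (SE 0.33, adjusted p = 0.315).

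Of 24 other reported NRF2 targets, 7 rose and 1 fell with SETBP1 (8.31% and 6.55% of all genes), and 6 rose and 6 fell with NRAS (17.0% and 15.5%). Fth1, the ferritin heavy chain, had its highest mean with both mutants: 2981 ± 352 normalised CPM with empty vectors, 8487 ± 3023 with SETBP1, 6544 ± 532 with NRAS and 10318 ± 678 with SETBP1+NRAS (SD, n = 3). Unlike for Hmox1, the SETBP1 spread of Fth1 reached past the mean with both mutants. Its log2 change was 1.51 with SETBP1 (edgeR adjusted p = 7.14e-04, or 1.18 without SETBP1 replicate 3) and 1.13 with NRAS (adjusted p = 2.98e-04). With SETBP1, Blvrb, a biliverdin reductase, rose by 1.08 (adjusted p = 0.00560) and Ftl1, the ferritin light chain, by 0.58 (adjusted p = 0.0301). Without SETBP1 replicate 3 these were 0.76 and 0.29. With NRAS, Esd rose by 0.98 and Pir by 0.88, while Idh1, a source of NADPH, fell by 0.84 and Taldo1, of the pentose phosphate pathway, fell by 0.59. Fth1 and Ftl1 have many pseudogene copies, so their counts are uncertain.

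The remaining lists were mixed too. Of 16 thioredoxin and peroxiredoxin genes, 4 rose with SETBP1 (8.31% of all genes), among them Prdx4, the peroxiredoxin of the endoplasmic reticulum (1.51, edgeR adjusted p = 0.00148), Prdx2 (0.56, adjusted p = 0.00734) and Txn2 (0.47, adjusted p = 0.0266), and with NRAS 2 rose and 4 fell (17.0% and 15.5% of all genes). Txn2 was at 0.26 without SETBP1 replicate 3 (adjusted p = 0.0199) and missed the threshold in 3 of 22 alternatives. Txn1, the substrate of Txnrd1, was at 0.07 with NRAS (adjusted p = 0.613), and that sign turned with scaling by library size. Of 10 genes of superoxide production and removal, Sod2, the mitochondrial superoxide dismutase, rose by 0.85 with SETBP1 (adjusted p = 7.54e-04), and the phagocyte oxidase genes Cybb (-0.87, adjusted p = 5.00e-07) and Hvcn1 (-1.46, adjusted p = 6.01e-08) fell with NRAS.

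Of 26 ATF4 targets and cysteine supply genes, 5 rose and 1 fell with SETBP1 (8.31% and 6.55% of all genes), and 8 rose and 2 fell with NRAS (17.0% and 15.5% of all genes; median log2 change of the list 0.13). Ddit3, the stress factor CHOP, rose by 0.61 with NRAS (edgeR adjusted p = 0.00384), Slc38a2, a neutral amino acid transporter, by 0.42 (adjusted p = 0.0440) and Stc2 by 0.41 (adjusted p = 0.0139). Vegfa fell by 0.58 (adjusted p = 7.94e-04). Atf4 messenger RNA stood at -0.03 (SE 0.08, adjusted p = 0.806). The changes named here were all far below the 3.62 of Slc7a11. Of 15 ferroptosis and iron genes, Gch1 (1.33, adjusted p = 8.46e-04) and Acsl4 (0.96, adjusted p = 0.00122) rose with NRAS and 4 fell, beside the same shares of all genes.

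**Figure D5:**
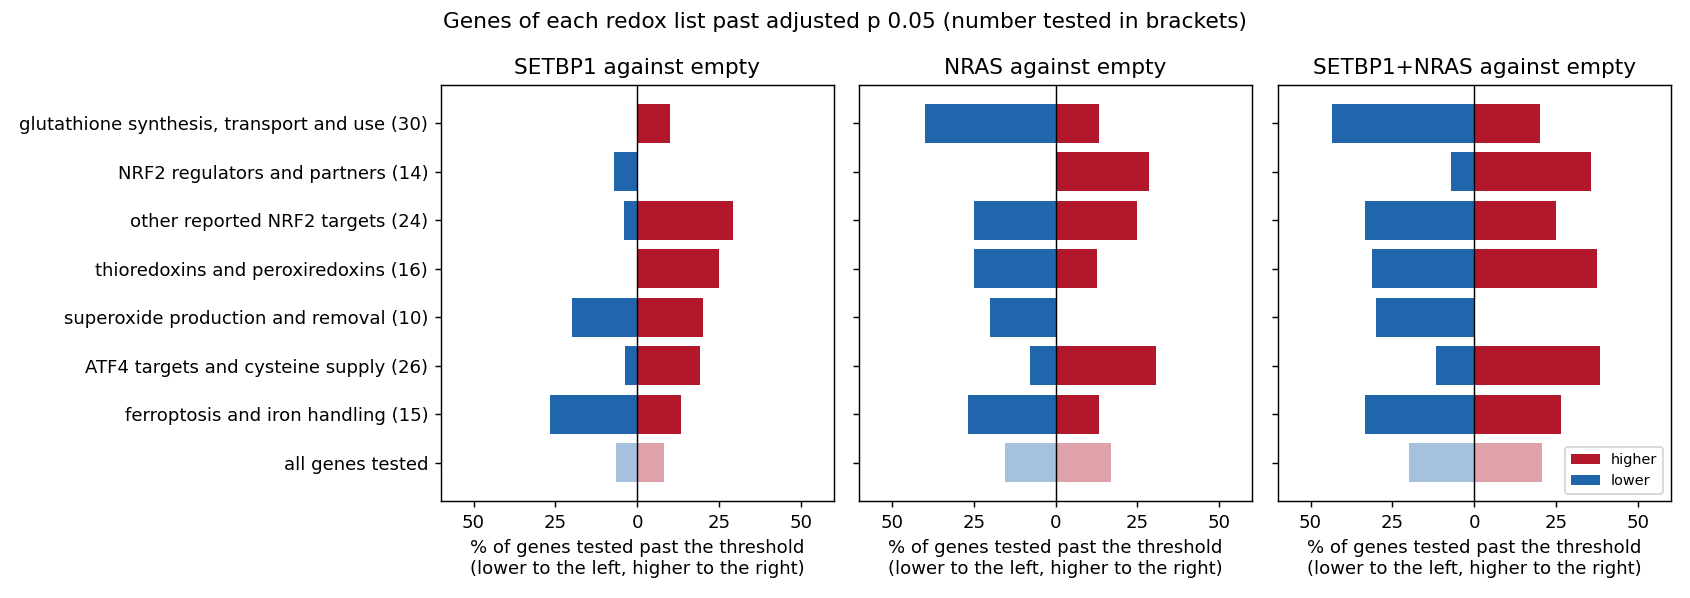
Share of each list's tested genes (x axis, percent; y axis, list with its number tested) past adjusted p 0.05, lower to the left and higher to the right, for SETBP1, NRAS and SETBP1+NRAS against empty, with all genes tested in pale colours at the bottom. Of the 30 glutathione genes, 12 were lower and 4 higher with NRAS, and the ATF4 list had 8 higher and 2 lower of 26.

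For SETBP1+NRAS against NRAS, 3 of the 135 list genes passed with edgeR (Mgst2, Hvcn1 and Alox5, all lower) and 1.91% of all genes, and without SETBP1 replicate 3 it was 17 of the 135 and 7.52% of all genes. The interaction passed for 0 of the 135 with edgeR, with 24 at an unadjusted p under 0.05, 5 with DESeq2, 0 with limma-voom and 5 without SETBP1 replicate 3. Over all genes, 0.0455% passed with edgeR, and 1420 of 10993 had an unadjusted p under 0.05. The all-gene share was 0.846% with DESeq2, 0.0273% with limma-voom and 0.99% without SETBP1 replicate 3. The changes of Pir and Slc38a2 with NRAS missed the threshold in 10 and 13 of 22 alternatives, that of Abcc1 in 5, and those of Ftl1 and Slc3a2 with SETBP1 in 4 each. Without SETBP1 replicate 3, more list genes passed with NRAS: 8 of the 14 regulators, 5 of the 10 superoxide genes and 10 of the 15 ferroptosis and iron genes. The share of all genes went from 32.5% to 47.0% at the same time. The list medians of the interaction ran from -0.25 for the thioredoxins and peroxiredoxins to 0.11 for the NRF2 regulators.

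Likeness to the pattern of Slc7a11 was measured over the whole table. By Pearson's r of log2 CPM over the 12 libraries, among 9470 genes, the 5 closest were Cct2 (0.988) and Cct4 (0.982), subunits of a cytosolic chaperonin, Hsp90ab1 (0.987), a cytosolic HSP90 chaperone, Myof (0.984), a membrane repair protein, and Pid1 (0.982), none of them a member or a gene of the 7 lists. Cct2 went from 330.3 ± 7.30 normalised CPM with empty vectors to 375 ± 1.70 with SETBP1, 493 ± 12.7 with NRAS and 504 ± 15.4 with SETBP1+NRAS (SD, n = 3). From NRAS to SETBP1+NRAS, mean normalised CPM also went up for Cct4 (596 to 608) and Pid1 (113 to 125). It went down for Hsp90ab1 (2981 to 2969) and Myof (42.2 to 39.7), and for Slc7a11 from 135 to 106. A high r here thus does not mean that a gene shared the lower level of Slc7a11 with both mutants. Of these 5 genes, 2 stayed among the closest 5 without SETBP1 replicate 3 and 0 were among the closest 5 by Spearman's rho, where they ranked between 17 and 458. Within the members, r with Slc7a11 was 0.959 for Txnrd1, 0.915 for Hmox1 and 0.676 for Srxn1, near 0 for Prdx1 (0.018), and negative for Nfe2l2 (-0.141), Nqo1 (-0.669), Gsr (-0.717), Gclm (-0.836) and Gclc (-0.893). These coefficients describe 12 libraries in 4 groups, and the group differences given above make up most of them.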

How the data were processed

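RNA sequencing of 12 libraries was analysed, 3 in each of 4 groups taken from the transduction label. The authors deposited 1 table of raw whole-number read counts per gene symbol, 19910 genes of which 5080 had no count. The submitters' processing notes name STAR, DESeq2 and mm10, without versions or roles; strand and multimapping rules are not given in the sources used here. Libraries were made with a low-input SMART-Seq chemistry from total RNA, per the labels' protocols.

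From the counts, edgeR 4.0.16 (R 4.3.3) quasi-likelihood F tests were fitted to all 12 libraries as 4 group means, with TMM scaling and filterByExpr (minimum count 10, minimum total 15), which kept 10993 genes and with them 99.9% of all reads counted. Two-sided p-values were adjusted over every gene tested (Benjamini-Hochberg), with a threshold of 0.05. Mean and SD are of normalised CPM, and log2 CPM used a prior count of 2. The steps were tested on simulated data.

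The members, lists and rules were chosen with earlier results of these data known. All 10 members are named, from each list and comparison up to 3 genes per direction with the largest change past the threshold, no overlap and a mean of at least 50 counts, and Keap1, Bach1, Slc3a2, Atf4, Gss, Gpx4 and Txn1 throughout; Glrx5, Lrrc8d and others so chosen are counted in the lists without their values. The 5 genes most like Slc7a11 had to meet the same count. Marker lists for erythroid and megakaryocyte, lymphoid and stromal cells, summed likewise, ranged over all libraries from 148 to 609 CPM, 77.2 to 467 CPM and 104 to 318 CPM.

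Positions come from GENCODE vM21 (GRCm38, the same build as mm10) and promoter windows from RefSeq (GRCm38.p6). Alternatives were DESeq2 1.42.0, limma-voom (limma 3.58.1), other scalings and filters, only the groups compared, a replicate block, a robust fit, the additive scale for the interaction, and leaving out each library. Same-numbered libraries of different groups were checked for shared deviations: 1 of 18 pairs correlated above 0.1 (range -0.127 to 0.124), so the numbers were not taken to pair the samples.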

Additional observations from a re-analysis of the deposited data

Results flagged for a closer look

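The SETBP1 change of Slc7a11 with NRAS minus that without NRAS was -1.44 on the log2 scale (SE 0.15). This is the value that chose the gene, so it is given as a description with no test. It stayed between -1.51 and -1.35 when each library was left out, and 3 of 3 SETBP1 libraries lay above the empty libraries while 3 of 3 SETBP1+NRAS libraries lay below the NRAS libraries. That range and that order come from the libraries that chose the gene, so they describe it and add no support.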

How the results depend on the processing

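Of 1179 values of the 9 genes in 6 comparisons under the alternatives, 1102 kept their direction and their side of the threshold, 38 lost the threshold, 13 passed it and 26 turned sign, all 26 not past the threshold in either fit. For the values below the cause was not tested.

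Counts of the 9 genes moved as follows. SETBP1 against empty had 1 gene with only the groups compared (1.03% of all genes) and 2 to 4 with single libraries left out (3.50% to 28.7% of all genes; 4 genes without SETBP1 replicate 3). SETBP1+NRAS against NRAS had 3 with only the groups compared (8.37% of all genes). With single libraries left out it had 0 (without any 1 of the NRAS or SETBP1+NRAS libraries) to 3 (without SETBP1 replicate 3). The share of all genes then ran from 0.834% to 7.52%. The interaction had 1 with DESeq2 (0.846% of all genes) and 0 to 1 with libraries left out (0.00898% to 0.99% of all genes). Over all genes, the interaction had 5 calls, or 110 of 11112 without SETBP1 replicate 3, and SETBP1+NRAS against NRAS had 210, or 836.

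With library size scaling, Nfe2l2 turned to -0.0832 for NRAS and -0.0334 for SETBP1+NRAS against empty, Txn1 to -0.0241 and -0.0573, Gclm to -0.0164 for the average SETBP1 effect, Slc3a2 to -0.0138 for SETBP1+NRAS against SETBP1, Srxn1 to -0.0294 and Gss to -0.0133 for SETBP1+NRAS against NRAS, and Txnrd1 to 0.00373 for the interaction. Upper-quartile scaling gave -0.0442 for Nfe2l2 with NRAS and -0.00962 for Srxn1 (SETBP1+NRAS against NRAS), which had -0.000705 with no filter and -0.000387 with only the groups compared. On the additive scale the interaction was 54.5 CPM for Hmox1 and 2.42 CPM for Txnrd1.

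With single libraries left out, signs varied for SETBP1 against empty in Gclc (-0.0476 to 0.0660), Gclm (-0.101 to 0.174) and Txnrd1 (-0.000475 to 0.110), and for NRAS against empty in Nfe2l2 (-0.0301 to 0.0340) and Atf4 (-0.0851 to 0.0123). For SETBP1+NRAS against NRAS they varied in Gclm (-0.0576 to 0.0150), Srxn1 (-0.0792 to 0.0478), Txn1 (-0.0497 to 0.0420), Gss (-0.0878 to 0.114) and Bach1 (-0.132 to 0.167). For SETBP1+NRAS against SETBP1 they varied in Gss (-0.136 to 0.101), Slc3a2 (-0.0487 to 0.216) and Bach1 (-0.202 to 0.481). The interaction varied in Gclm (-0.198 to 0.0764), Txnrd1 (-0.0678 to 0.0436) and Nqo1 (-0.0355 to 0.708), and the average SETBP1 effect in Gclm (-0.0631 to 0.0747).

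With the replicate number as a block, 2, 5, 1, 7, 7 and 0 of the 9 genes passed for SETBP1, NRAS, SETBP1+NRAS against NRAS, against SETBP1, against empty and the interaction, the change being Gsr with NRAS (-0.18, adjusted p = 0.0530). The shares of all genes with that block were 10.7%, 30.4%, 1.49%, 40.1%, 38.9% and 0.0546% in the same order. Of 12 libraries, 1 correlated best with its own number. Depth limits Nqo1 most.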
